A study of Homo sapiens with 8 samples.

Results

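A primary tumour derivative of the human prostate carcinoma line 22Rv1 was compared with the parental line it came from. The 4 arrays were taken by their titles, 2 for the primary tumour derivative (22Rv1-PT) and 2 for the parental cells (22Rv1-Luc2, named for a luciferase reporter gene), out of 8 arrays in the series. Cells of 22Rv1 were propagated in animals, and the other 4 arrays belong to the metastatic derivatives M3-1 and M3-2, with 2 arrays each. Every sample was described as a prostate cancer cell line, with no drug, hormone or genetic treatment named, and total RNA was read on single-colour Illumina bead arrays. No source used here gives the number of animals, the site of the primary tumour or the time spent in the animal. The labels number the 2 arrays of each group without naming separate cultures or animals, so p-values rest on array-to-array spread alone, possibly technical. The number of arrays limits the precision of every value.

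22Rv1 is an epithelial line whose parent tumour was grown as a xenograft, and it is used as a model of prostate cancer that has escaped castration. Prostate luminal cells are marked by keratins 8 and 18, by kallikreins and by androgen-driven surface and secretory genes, and prostate tumours can also take on a neuroendocrine programme of secretory granules. Uridine diphosphate glucuronosyltransferases of the UGT2B family attach glucuronic acid to androgens and so end their action, and insulin-like growth factors are held outside the cell by binding proteins such as IGFBP3.

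Levels are given as log2 intensity, on which 1 unit is a doubling, and differences are the primary tumour derivative minus the parental line unless another group is named. A probe was taken as above background where it exceeded 6.551 on at least 2 arrays, which left 12244 of 20046 named genes to test. A gene is called higher, lower or changed where limma gave an adjusted p under 0.05 over all 12244 genes. Where neither array of a group exceeded 6.551, the fold is a lower bound and is written "at least". The correlation across genes between the 2 arrays of a group was 0.9946 in the primary tumour derivative and 0.9865 in parental cells. Differences of 2-fold or more between the 2 arrays of a group were seen in 1 gene of the primary tumour derivative and in 56 genes of the parental line.

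The labelled cell type was checked against 10 luminal markers on the array, of which 9 were above background. Their mean log2 intensity was 9.64 and 9.59 in the primary tumour derivative and 9.37 and 9.34 in parental cells. KLK4, a kallikrein peptidase, lay at 13.65 and 13.66 in the primary tumour derivative and 13.92 and 13.81 in parental cells. EPCAM, an epithelial adhesion molecule, lay at 12.70 and 12.48 in the primary tumour derivative and 12.38 and 12.30 in parental cells. Both genes were bright on all 4 arrays and neither was called. Of the other markers, KRT18 (difference 0.86, adjusted p = 0.0011) and FOLH1 were called higher. KLK2, KRT8, HOXB13, TMPRSS2 and SLC45A3 were not called. KLK3, which encodes prostate-specific antigen, was not above background on any array, at 6.29 and 6.35 in the primary tumour derivative and 6.20 and 6.23 in parental cells. In bulk RNA, fewer cells of a kind and less RNA per cell cannot be told apart.

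In all, 844 genes changed, 6.89% of those tested, with 419 higher (3.42%) and 425 lower (3.47%) in the primary tumour derivative. Of these, 164 differed by at least 2-fold, 82 in each direction. The arrays of the 2 groups did not overlap for any of the 844 genes, which was so for 44.6% of all genes tested. The count depended on single arrays, at 354 without primary tumour derivative replicate 1, 386 without its replicate 2 and 1394 without parental replicate 1. With only the 4 arrays compared in the fit, it was 419. The fit of all 8 arrays shared 1 spread over the 4 groups, and the parental pair was the widest. Its root mean square difference was 0.308, against 0.195 in the primary tumour derivative, 0.143 in M3-1 and 0.226 in M3-2. A group left with 1 array adds no spread, so here and below counts without an array also reflect the pair lost.

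Genes of chromosome 12 were lower as a block in the primary tumour derivative. Of 653 chromosome 12 genes tested, 72 fell and 10 rose, or 11% lower against 3.05% of the 11591 other genes. The median difference on chromosome 12 was -0.18, against 0.01 over the other genes, and the medians of the other chromosomes ran from -0.03 on chromosome 8 to 0.04 on chromosome 22. On chromosome 12, 529 genes (81.0%) had a difference below zero, against 47.3% of the others. Chromosome 12 carried 16.9% of all lower genes but 5.33% of the genes tested.

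The shift was present on each array of the primary tumour derivative. Relative to each gene's mean over the 8 arrays, the median chromosome 12 gene lay at -0.17 and -0.15 in the primary tumour derivative and at 0.03 and 0.04 in parental cells. It lay at 0.06 and 0.06 in M3-1 and at 0.04 and 0.06 in M3-2. Both primary tumour derivative arrays were therefore below all 6 other arrays, and the medians against the metastatic lines were -0.21 for M3-1 and -0.21 for M3-2. The 4 possible pairs of a primary tumour derivative array and a parental array gave medians of -0.18, -0.19, -0.16 and -0.20 (replicates 1 and 1, 1 and 2, 2 and 1, 2 and 2).

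**Figure D1:**
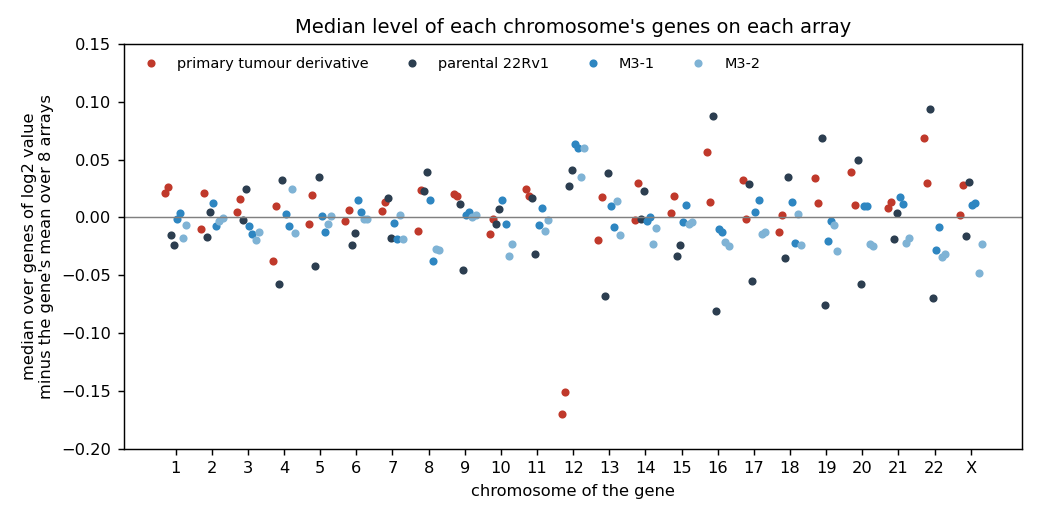
Median level of the tested genes of each chromosome on each of the 8 arrays, as log2 intensity minus the gene's mean over all arrays (vertical axis), by chromosome (horizontal axis), with 1 point for each array. On chromosome 12 the 2 points of the primary tumour derivative lie at -0.17 and -0.15, and all other arrays are above zero there.

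Along chromosome 12 the shift was not limited to a segment. When the genes were cut in gene order into 12 stretches of 54 or 55 neighbours, every stretch had a negative median, from -0.11 to -0.28, and from 4 to 9 genes lower. The size of the shift varied with brightness. It was -0.06 for the 137 genes with a mean log2 intensity below 7, -0.21 for the 218 genes between 7 and 9, -0.31 for the 173 genes between 9 and 11 and -0.18 for the 125 brighter genes. DNA was not measured, and whether chromosome 12 was present in fewer copies was not tested.

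**Figure D2:**
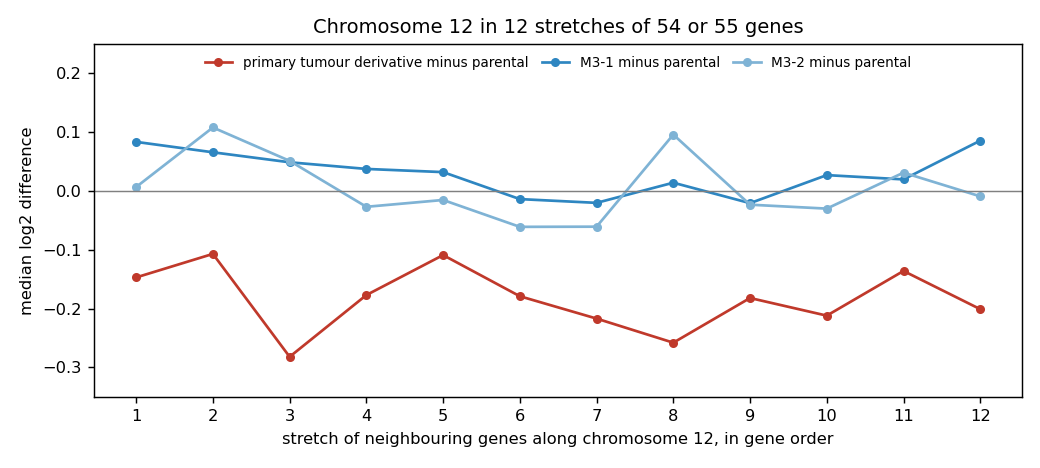
Median log2 difference (vertical axis) in 12 stretches of neighbouring genes along chromosome 12, in gene order (horizontal axis), for the primary tumour derivative, M3-1 and M3-2, each minus the parental line. The primary tumour derivative is below zero in all 12 stretches, while both metastatic lines lie around zero.

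Parental replicate 1 differed from parental replicate 2 on several chromosomes, by a median of 0.19 on chromosome 16, 0.12 on 17, 0.19 on 19, 0.11 on 20 and 0.18 on 22, but by -0.01 on chromosome 12. On chromosomes 16, 19 and 22 this gap between 2 arrays of 1 group is about the size of the chromosome 12 shift, and its part in genes called there was not tested. By 2-fold or more, 4 of 653 chromosome 12 genes fell, against 82 of all 12244 genes tested. These 4 were named after their values were seen. They were PTPRB, a receptor tyrosine phosphatase (-1.36), CPNE8, a calcium-dependent membrane-binding copine (-1.14), MYO1A, a brush border myosin (-1.06), and STAT6, the transcription factor of interleukin-4 signalling (-1.04). PTPRB had 8.28 and 8.24 in the primary tumour derivative and 9.61 and 9.64 in parental cells. Since these 4 genes were picked by size, their place beyond the median of the chromosome was fixed in advance. LUM, BHLHE41 and FAIM2 rose by 2-fold or more on the chromosome. After each array's chromosome 12 genes were centred on their own median, a setting chosen after seeing the data, 22 genes of the chromosome stayed lower, all of them among the 72, and 23 were higher. The genome-wide count was then 792, and 746 with chromosome 12 left out, 404 higher and 342 lower.

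Among the chromosome 12 genes was CDKN1B, which encodes the cyclin-dependent kinase inhibitor p27. It had 10.19 and 10.42 in the primary tumour derivative and 11.03 and 11.51 in parental cells, a 1.95-fold decrease (adjusted p = 0.00177). IPO8, a nuclear import receptor, had 8.19 and 8.40 in the primary tumour derivative and 9.02 and 9.49 in parental cells. Both groups of arrays were separate for both genes, as for every changed gene. The sodium-coupled glutamine transporter SLC38A1 lay at 10.23 and 10.53 in the primary tumour derivative and 11.05 and 11.47 in parental cells, and its call ended without primary tumour derivative replicate 1 (adjusted p = 0.0662). The calls of IGF1 and of the neuronal enolase ENO2 ended once chromosome 12 was centred, and also without primary tumour derivative replicate 1.

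The largest increases were in genes of lipid binding, calcium binding, matrix and detoxification. FABP7, a fatty acid-binding protein of brain and of several carcinomas, had 9.98 and 10.31 in the primary tumour derivative and 6.13 and 6.29 in parental cells, at least 12.1-fold higher (adjusted p = 9.61e-08). S100P, a calcium-binding protein, had 12.99 and 13.02 in the primary tumour derivative and 9.88 and 9.70 in parental cells, 9.33-fold higher (adjusted p = 4.65e-09). NQO1, a quinone reductase, had 12.04 and 12.02 in the primary tumour derivative and 9.12 and 9.11 in parental cells. FABP7 thus passed from not above background in both parental arrays to a moderate level, while S100P and NQO1 were already expressed in parental cells.

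Other genes with large increases were signalling and transport proteins not grouped in any list. PPP1R1B, a dopamine-regulated phosphatase inhibitor, had 12.20 and 12.18 in the primary tumour derivative and 9.75 and 9.48 in parental cells. STK39, a kinase that activates ion cotransporters, had 12.07 and 12.05 in the primary tumour derivative and 9.93 and 10.27 in parental cells, a 3.88-fold increase. LITAF, an endosomal sorting protein, had 10.15 and 10.31 in the primary tumour derivative and 8.09 and 8.19 in parental cells. All 3 were more than 3-fold higher. TSC22D3, a glucocorticoid-induced leucine zipper protein, and CRABP2, a carrier of retinoic acid, rose by 1.85 (SE 0.13) and 1.88 (SE 0.14). GADD45G, a stress-induced growth arrest gene, rose by 1.91 (SE 0.16).

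The largest decrease was in IGFBP3, with 8.21 and 8.16 in the primary tumour derivative and 12.91 and 12.52 in parental cells, 23.2-fold lower (adjusted p = 4.50e-09). CLDN11, a tight junction claudin best known from myelin and testis, had 8.03 and 7.93 in the primary tumour derivative and 10.74 and 10.99 in parental cells. COLCA1, a gene of a colorectal cancer susceptibility locus, had 5.91 and 6.15 in the primary tumour derivative and 8.67 and 9.05 in parental cells, at least 4.96-fold lower. IGFBP3 was bright in parental cells and moderate in the derivative, whereas COLCA1 was not above background in the derivative. HGF, the ligand of the MET receptor, had 8.19 and 7.93 in the primary tumour derivative and 9.92 and 9.81 in parental cells. RAP1GAP, which switches off the small GTPase RAP1, had 10.40 and 10.55 in the primary tumour derivative and 12.26 and 11.99 in parental cells. Both fell by more than 3-fold.

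**Figure D3:**
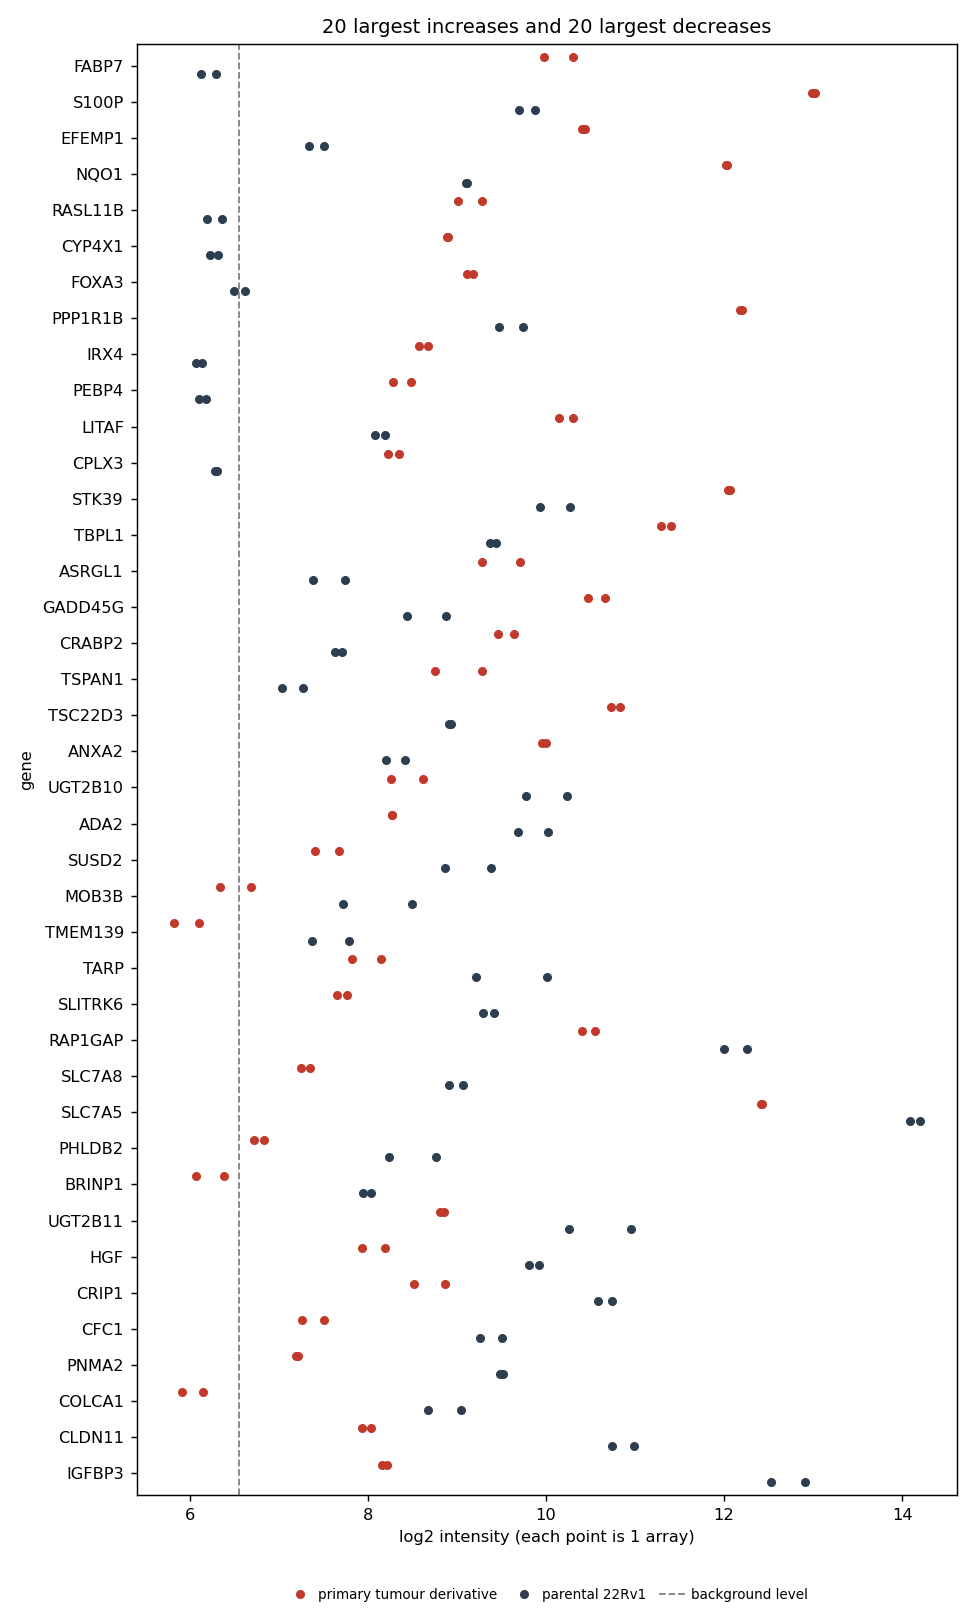
Log2 intensity (horizontal axis) of the 20 genes with the largest increase and the 20 with the largest decrease (vertical axis, in order of the difference), with 1 point for each array and the background level of 6.551 as a dashed line. FABP7 stands at the top with 9.98 and 10.31 in the primary tumour derivative, and IGFBP3 stands at the bottom with 8.21 and 8.16. Only genes whose groups do not overlap were eligible.

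Steroid-conjugating enzymes were lower in the primary tumour derivative. Of 16 tested genes of steroid metabolism, 7 fell and 1 rose, and 5 UGT2B genes were among those that fell. Here and below, gene lists were chosen with earlier results of these data known, so their counts are descriptions. Over all genes tested 3.47% were lower and 3.42% higher, the shares to read beside each list count. UGT2B11 had 8.82 and 8.85 in the primary tumour derivative and 10.26 and 10.96 in parental cells, 3.42-fold lower (adjusted p = 5.31e-05). UGT2B17 had 9.13 and 9.33 in the primary tumour derivative and 10.71 and 10.85 in parental cells, and UGT2B15 had 8.99 and 8.91 in the primary tumour derivative and 10.21 and 10.53 in parental cells. These 3 genes were 2.67-fold to 3.42-fold lower. UGT2B10 fell by 1.56 (SE 0.17) and UGT2B28 by 0.85 (SE 0.12). UGT2B4, a further family member outside the list, lay near background at 6.52 and 6.23 in the primary tumour derivative and 6.58 and 7.02 in parental cells and was not called (adjusted p = 0.162). AKR1C2, which reduces dihydrotestosterone, had 10.39 and 10.24 in the primary tumour derivative and 11.83 and 11.43 in parental cells. Members of the UGT2B and AKR1C families are near-identical in sequence, so probes may not separate them. Over all 16 genes the median difference was -0.11.

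The promoters of 3 of these 5 lower UGT2B genes were in the RefSeq promoter table (GRCh38.p14), and they are shown because these neighbours on chromosome 4 fell together. Each line gives 120 bases read 5′ to 3′ on the strand of the gene. The capitals mark the longest run that all 3 share, 18 bases beginning 55 or 56 bases before the gene start. The sequences lie at chr4:68815874-68815993 (plus strand) for UGT2B10, chr4:69214749-69214868 (minus strand) for UGT2B11 and chr4:68670653-68670772 (minus strand) for UGT2B15.
UGT2B10: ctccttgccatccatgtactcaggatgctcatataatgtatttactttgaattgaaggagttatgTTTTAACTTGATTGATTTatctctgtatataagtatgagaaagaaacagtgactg
UGT2B11: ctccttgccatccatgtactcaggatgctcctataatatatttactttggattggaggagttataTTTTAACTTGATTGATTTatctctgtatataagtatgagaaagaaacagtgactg
UGT2B15: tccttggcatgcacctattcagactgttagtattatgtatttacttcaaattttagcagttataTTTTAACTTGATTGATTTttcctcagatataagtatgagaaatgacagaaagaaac
Over the 120 bases UGT2B10 and UGT2B11 were 95.8% identical, UGT2B10 and UGT2B15 76.7%, and UGT2B11 and UGT2B15 75.8%. The run TTTTAACTTGATTGATTT, searched on both strands, was present in 3 of 35116 promoter windows of 300 bases (0.00854%), those of these genes. The run was taken from these 3 promoters, so its presence in them was fixed in advance and its rarity elsewhere is no test. A match of letters is a description of the family and names no factor.

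SLC7A5, SLC3A2 and SLC7A8 fell in the primary tumour derivative. SLC7A5 encodes LAT1, which carries large neutral amino acids and needs the heavy chain encoded by SLC3A2 to reach the membrane, and SLC7A8 encodes LAT2, a second partner of that chain. SLC7A5 had 12.41 and 12.43 in the primary tumour derivative and 14.20 and 14.09 in parental cells, 3.31-fold lower (adjusted p = 2.58e-06). SLC3A2 had 10.94 and 10.78 in the primary tumour derivative and 12.55 and 12.21 in parental cells, 2.87-fold lower (adjusted p = 1.38e-05). SLC7A8 had 7.25 and 7.35 in the primary tumour derivative and 9.07 and 8.92 in parental cells, 3.24-fold lower (adjusted p = 2.58e-06). Both subunits of LAT1 were thus lower on every array of the derivative, and all 3 calls held under each of 21 other settings. SLC7A2, a carrier of cationic amino acids, fell by 0.99 (SE 0.14).

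In a list of 48 solute carriers tested, 10 fell and 3 rose, and the 3 that rose were glucose transporters. SLC2A12 had 8.50 and 8.84 in the primary tumour derivative and 7.33 and 7.25 in parental cells, 2.60-fold higher. SLC2A10 had 8.99 and 9.17 in the primary tumour derivative and 8.07 and 8.28 in parental cells. SLC2A1, the widely expressed transporter GLUT1, had 10.38 and 10.05 in the primary tumour derivative and 9.70 and 9.52 in parental cells, but lost its call in 4 other settings, among them without primary tumour derivative replicate 1 or parental replicate 2. Without parental replicate 1 the solute carriers gave 11 lower and 8 higher, and without primary tumour derivative replicate 1 they gave 6 lower and 2 higher. Of 32 genes of the ATF4 amino acid response the 3 called genes, all lower, were SLC7A5, SLC3A2 and the glutamine transporter SLC38A2, all transporters. The median of the list was 0.01, and 9.38% of it was called, against 6.89% of all genes tested. The call of SLC38A2, a chromosome 12 gene, ended in 6 of 20 other settings, among them with chromosome 12 centred, with only the 4 arrays compared, and without primary tumour derivative replicate 1 or parental replicate 2.

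In the neuroendocrine list 10 of 18 tested members were lower, against 3.47% of all genes tested, 1 was higher and the median was -0.60. CHGB, a granin of secretory granules, had 7.43 and 7.37 in the primary tumour derivative and 8.72 and 8.73 in parental cells (adjusted p = 1.45e-05). VGF, the precursor of several secreted neuropeptides, had 12.43 and 12.42 in the primary tumour derivative and 13.75 and 13.60 in parental cells. SYT4, a synaptotagmin, had 11.51 and 11.74 in the primary tumour derivative and 12.35 and 12.88 in parental cells. The derivative was below the parental line on both arrays for each of these, yet VGF and SYT4 stayed bright. CHGA, the most used clinical marker of this programme, lay at 7.04 and 6.77 in the primary tumour derivative and 6.91 and 6.98 in parental cells and was not called (adjusted p = 0.925). DDC, which makes dopamine and serotonin, fell by 0.96 (SE 0.15). SYP, a synaptic vesicle protein, was also called lower, but its call ended in 10 of 21 other settings. Among these were the fit of only the 4 arrays compared and the fit with array weights. Leaving out single arrays of either group left 8 to 10 members lower.

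Genes of neuronal structure moved both ways, with 5 of 34 lower and 3 higher. PNMA2, a neuronal antigen, had 7.19 and 7.21 in the primary tumour derivative and 9.52 and 9.49 in parental cells, 4.93-fold lower. NRCAM, a neuronal adhesion molecule, had 7.11 and 7.28 in the primary tumour derivative and 8.57 and 8.96 in parental cells. The microtubule-associated gene MAP1B ran the other way, with 8.50 and 8.28 in the primary tumour derivative and 7.14 and 6.67 in parental cells. Without primary tumour derivative replicate 2 the list had 3 members lower. BASP1, a growth cone protein, rose by 1.26 (SE 0.14), and the tubulin TUBB2B fell by 1.19 (SE 0.13).

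Epithelial genes were higher more often than lower, with 7 of 34 higher and 1 lower. KRT19, a keratin of simple epithelia, had 11.99 and 11.94 in the primary tumour derivative and 10.53 and 10.55 in parental cells, 2.68-fold higher (adjusted p = 1.91e-05). MUC1, a membrane mucin, had 8.18 and 8.29 in the primary tumour derivative and 7.13 and 7.15 in parental cells. KRT18 had 9.05 and 8.99 in the primary tumour derivative and 8.25 and 8.07 in parental cells, a rise against the lower median of its chromosome 12 neighbours. Its partner KRT8, also on chromosome 12, lay at 10.60 and 10.75 in the primary tumour derivative and 10.40 and 10.13 in parental cells and was not called (adjusted p = 0.0919). The member that fell was CLDN11. Without parental replicate 1 the count was 10 higher and 2 lower, and without primary tumour derivative replicate 1 it was 4 higher and 1 lower. KRT7 lost its call without primary tumour derivative replicate 2 (adjusted p = 0.109).

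Cadherins and other mesenchymal genes were partly lower, 3 of 13 against 1 higher, with 2 and 5 lower without primary tumour derivative replicate 1 and parental replicate 1. CDH2, or N-cadherin, had 9.15 and 9.18 in the primary tumour derivative and 10.44 and 10.46 in parental cells, 2.43-fold lower (adjusted p = 1.54e-05). CDH1, or E-cadherin, lay at 11.61 and 11.88 in the primary tumour derivative and 11.73 and 12.002 in parental cells (adjusted p = 0.730). VIM, the intermediate filament vimentin, lay at 9.24 and 9.08 in the primary tumour derivative and 9.37 and 9.23 in parental cells (adjusted p = 0.631). N-cadherin therefore differed without a called difference in E-cadherin or vimentin. The matrix glycoprotein TNC fell by 0.91 (SE 0.13).

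S100 and annexin genes, which encode calcium-dependent proteins of the cell cortex, had 5 of 18 members higher and 1 lower, with a median of 0.26. ANXA2 had 9.95 and 9.997 in the primary tumour derivative and 8.20 and 8.41 in parental cells, 3.18-fold higher. ANXA1 had 8.56 and 8.64 in the primary tumour derivative and 6.99 and 7.14 in parental cells, 2.90-fold higher. S100A10, the S100 protein that pairs with annexin A2, had 13.28 and 13.17 in the primary tumour derivative and 14.10 and 13.91 in parental cells, 1.72-fold lower (adjusted p = 0.00178). The partners in this complex thus differed in opposite directions. S100A4 was at least 1.63-fold higher, since neither parental array was above background. Without parental replicate 1 the list had 7 members higher.

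Lipid genes were higher in 7 of 39 members and lower in 2, with a median of 0.13. FASN, the synthase that builds palmitate, had 13.71 and 13.77 in the primary tumour derivative and 12.98 and 12.85 in parental cells, 1.78-fold higher (adjusted p = 0.00134). ACSL1, which activates long-chain fatty acids, had 9.69 and 9.61 in the primary tumour derivative and 8.40 and 8.52 in parental cells. PLA2G4C, a cytosolic phospholipase, had 8.10 and 8.03 in the primary tumour derivative and 6.73 and 6.71 in parental cells, 2.54-fold higher. All 3 were higher on both arrays, and the lipid genes that fell included LPL, a secreted lipase, by 0.65 (SE 0.13), whose call ended without either primary tumour derivative array (adjusted p up to 0.0957). Without primary tumour derivative replicate 1 the list had 4 members higher and no lower call.

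In cholesterol synthesis the genes called among 19 were HMGCS1 and LSS, both lower, and each lost its call in 6 other settings, among them without either primary tumour derivative array. Of these 19 genes 10.5% were called, against 6.89% of all genes tested. Differences were below zero for 17 of them and above zero for 2, with a median of -0.16. At an unadjusted p under 0.05 limma gave 5 lower and 0 higher. The glycolytic entry enzyme HK2 had 11.05 and 11.18 in the primary tumour derivative and 10.18 and 10.22 in parental cells, 1.89-fold higher (adjusted p = 0.000380). Among 37 hypoxia and glycolysis genes 4 rose and 3 fell, with 8 and 4 without parental replicate 1, 2 and 5 without parental replicate 2 and 1 and 1 without primary tumour derivative replicate 1. ANGPTL4, a secreted inhibitor of lipoprotein lipase, had 9.66 and 9.42 in the primary tumour derivative and 10.96 and 10.48 in parental cells, 2.27-fold lower.

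Targets of NRF2, a transcription factor of the oxidant response, were higher in 5 of 28 members and lower in 2. Besides NQO1, EPHX1, a microsomal epoxide hydrolase, had 8.91 and 8.66 in the primary tumour derivative and 7.90 and 7.78 in parental cells. CBR3, a carbonyl reductase, had 9.01 and 8.90 in the primary tumour derivative and 8.16 and 8.23 in parental cells. GCLC, which catalyses the entry step of glutathione synthesis, had 9.54 and 9.33 in the primary tumour derivative and 9.96 and 10.29 in parental cells. Thus, within this list, GCLC and AKR1C2 were lower while NQO1, EPHX1 and CBR3 were higher. GCLC lost its call without primary tumour derivative replicate 2 (adjusted p up to 0.120).

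In the insulin-like growth factor axis, binding proteins and receptor substrates differed. Of 16 members 4 fell and 1 rose. IRS2, an adaptor of the insulin and IGF1 receptors, had 11.30 and 11.62 in the primary tumour derivative and 10.003 and 10.19 in parental cells, 2.57-fold higher (adjusted p = 3.72e-05). Its relative IRS1 had 7.37 and 7.53 in the primary tumour derivative and 8.13 and 8.20 in parental cells, 1.64-fold lower, and lost its call without primary tumour derivative replicate 1 (adjusted p = 0.0615). IGFBP5 was not above background in the derivative and was at least 1.40-fold lower. The adaptors IRS2 and IRS1 thus ran in opposite directions. Without primary tumour derivative replicate 1 the list had 2 members lower, and without parental replicate 2 it had 6.

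Of 40 growth factor and cytokine genes 7 fell, HGF the most, and 1 rose, but leaving out primary tumour derivative replicate 1 or replicate 2 left 2 lower. The median of this list was 0.07, with 22 differences above zero and 18 below, and at an unadjusted p under 0.05 limma gave 8 higher and 10 lower. In the TGF-beta and BMP list 7 of 25 fell and 1 rose, with a median of -0.21, and leaving out either of these arrays left 5 lower. CFC1, a co-receptor for Nodal, had 7.51 and 7.26 in the primary tumour derivative and 9.50 and 9.26 in parental cells, 3.98-fold lower. BMP2, a bone morphogenetic protein, had 7.14 and 7.33 in the primary tumour derivative and 8.50 and 8.68 in parental cells, 2.55-fold lower. TGFB3 had 8.52 and 8.48 in the primary tumour derivative and 9.43 and 9.52 in parental cells. CFC1, BMP2 and TGFB3 were therefore lower on both arrays of the derivative than on both parental arrays. Of the 25 members 17 were not called, and SMAD9, a signal transducer of BMPs, fell by 0.92 (SE 0.13).

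Of 21 receptor kinase genes 4 were lower and 0 higher by limma, with 6 lower and 3 higher at an unadjusted p under 0.05, and 2 were higher without parental replicate 1. EPHA3, an ephrin receptor, had 8.05 and 8.50 in the primary tumour derivative and 9.30 and 10.08 in parental cells. FGFR4, a fibroblast growth factor receptor, had 6.58 and 6.63 in the primary tumour derivative and 7.54 and 7.33 in parental cells. MERTK, a receptor of the TAM family, had 7.15 and 7.07 in the primary tumour derivative and 7.98 and 7.98 in parental cells. Groups did not overlap for these receptors, as for every changed gene. SPRY4, a feedback inhibitor of receptor kinase signalling, fell by 0.99 (SE 0.12), while IER3 and the phosphatase gene DUSP1, both immediate early genes, rose by 1.16 (SE 0.14) and 0.87 (SE 0.13). In their list of 35 genes 6 fell and 4 rose, and leaving out either primary tumour derivative array left 2 lower.

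Among 34 lineage transcription factors 5 rose and 3 fell, with 3 and 1 without primary tumour derivative replicate 1. FOXA3, a forkhead factor of liver and gut, had 9.19 and 9.11 in the primary tumour derivative and 6.62 and 6.50 in parental cells, 6.02-fold higher (adjusted p = 2.56e-08). GATA3, a factor of luminal epithelium, had 6.66 and 6.60 in the primary tumour derivative and 8.24 and 7.88 in parental cells, 2.68-fold lower (adjusted p = 2.17e-05). HOXB13, a prostate homeobox factor, lay at 9.96 and 9.65 in the primary tumour derivative and 9.72 and 9.24 in parental cells (adjusted p = 0.289). FOXA3 and GATA3 thus lay near background in opposite groups, while HOXB13 overlapped between groups. The gut-type list had 3 of 20 tested members higher and 1 lower, with 9 differences above zero, 11 below and a median of -0.06. At an unadjusted p under 0.05 limma gave 4 higher and 5 lower. The gut-type genes LGALS4, a galectin, and VIL1, the brush border protein villin, rose by 1.48 (SE 0.13) and 0.92 (SE 0.15). AGR2, a disulphide isomerase of mucosal cells, fell by 1.18 (SE 0.20).

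**Figure D4:**
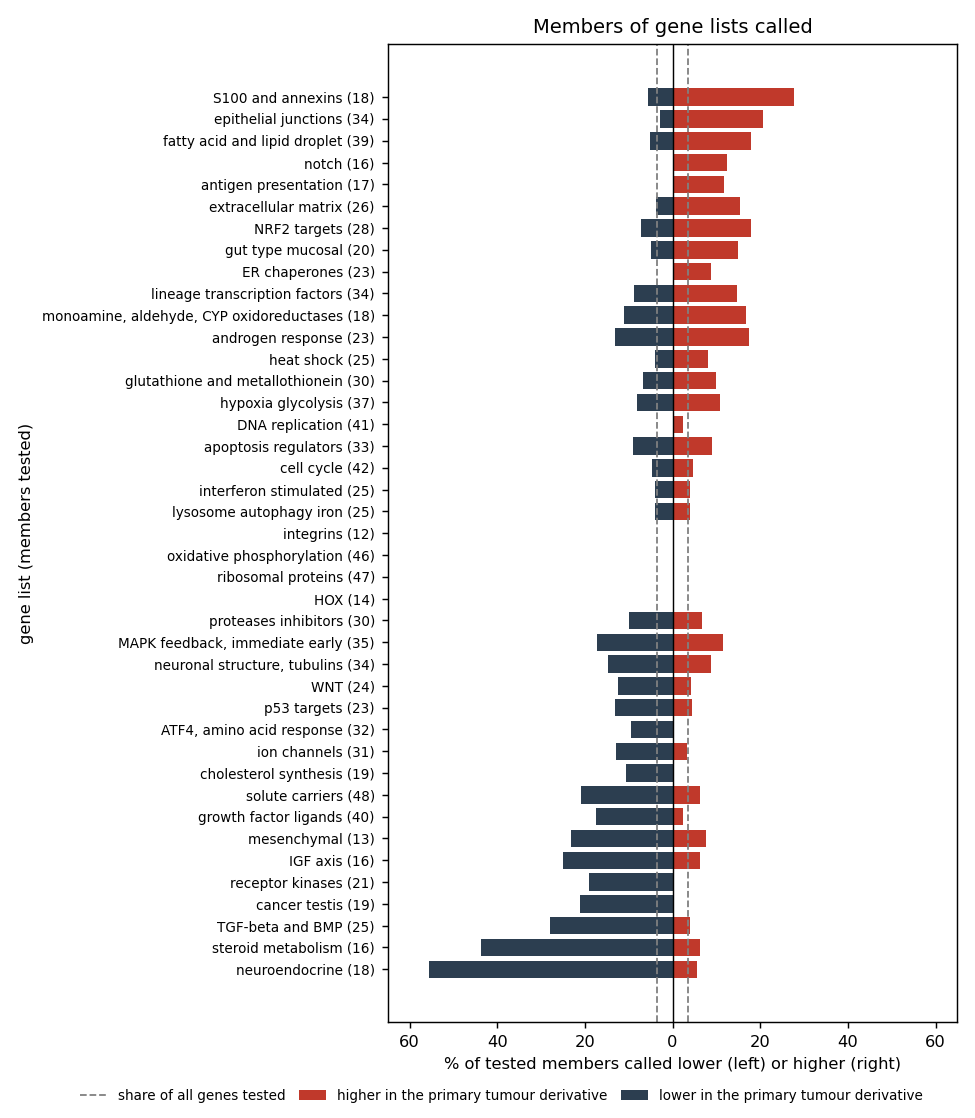
Share of tested members called lower (left of zero) or higher (right of zero) in the primary tumour derivative, in percent (horizontal axis), for each gene list with at least 10 members tested (vertical axis, number tested in brackets). Dashed lines mark the share of all genes tested, 3.42% higher and 3.47% lower. The lists were chosen with earlier results of these data known, so the bars are a description. Neuroendocrine and steroid metabolism genes have the longest bars to the left, with 10 of 18 and 7 of 16 members lower, and no bar is drawn for the ribosomal, oxidative phosphorylation, integrin and HOX lists.

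Androgen response genes gave no common direction, with 4 of 23 higher, 3 lower and a median of -0.06. Without primary tumour derivative replicate 2 the count was 1 higher and 2 lower, and no call was left without its replicate 1. FOLH1, prostate-specific membrane antigen, lay at 9.95 and 10.11 in the primary tumour derivative and 9.005 and 9.57 in parental cells, and its call (adjusted p = 0.0430) ended in 8 of 21 other settings, among them without either primary tumour derivative array or parental replicate 1. TMPRSS2 lay at 8.36 and 8.14 in the primary tumour derivative and 8.12 and 8.36 in parental cells. SLC45A3 lay at 8.32 and 8.44 in the primary tumour derivative and 8.46 and 8.43 in parental cells. Neither of these androgen-driven genes was called (adjusted p = 0.982 and 0.862).

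MKI67 and MYC were not called. The proliferation marker MKI67 lay at 8.15 and 8.38 in the primary tumour derivative and 8.24 and 8.32 in parental cells (adjusted p = 0.963). MYC lay at 11.84 and 11.86 in the primary tumour derivative and 12.27 and 11.997 in parental cells (adjusted p = 0.257). Of 42 cell cycle genes 2 rose and 2 fell, so 9.52% were called, against 6.89% of all genes tested. CCNE1, the cyclin of S-phase entry, rose by 0.97 (SE 0.15). The lower members were CDKN1B and CENPF, a kinetochore protein, which fell by 0.57 (SE 0.14), a call that ended in 6 of 21 other settings, among them without either primary tumour derivative array or parental replicate 1. BAX, a pore-forming death effector, had 9.02 and 9.02 in the primary tumour derivative and 9.86 and 9.82 in parental cells, 1.77-fold lower (adjusted p = 0.000959). Thus single regulators were called without a called difference in MKI67 or MYC.

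Most markers of fibroblasts, endothelium and leukocytes were not above background. Of 15 fibroblast and smooth muscle markers 6 were above background, and their mean over all 15 was 6.71 and 6.75 in the primary tumour derivative and 6.56 and 6.54 in parental cells. LUM, the proteoglycan lumican, was the member called, with 8.01 and 8.76 in the primary tumour derivative and 6.55 and 7.21 in parental cells. COL1A1 lay at 7.05 and 6.80 in the primary tumour derivative and 6.85 and 6.77 in parental cells and was not called. Only 1 of 11 endothelial markers and 4 of 15 leukocyte markers were above background, and 0 of these were called by limma in either direction, with 2 leukocyte markers and 0 endothelial markers at an unadjusted p under 0.05. Of 7 adipocyte markers 2 were above background and both fell, LPL and the hormone gene LEP. LEP had 10.39 and 10.15 in the primary tumour derivative and 11.07 and 10.82 in parental cells, and its call ended without primary tumour derivative replicate 2 and with only the 4 arrays compared.

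Some markers of hepatocytes and erythroid cells were called lower, and none was called higher. Hepatocyte markers were above background for 4 of 12 genes, of which 2 were called lower and 2 were not called. ALB, serum albumin, had 12.07 and 12.27 in the primary tumour derivative and 13.52 and 13.84 in parental cells, 2.85-fold lower, and was bright in both groups. HBA2, an alpha globin, had 9.81 and 9.62 in the primary tumour derivative and 10.84 and 10.52 in parental cells. Of 16 erythroid markers 7 were above background and 4 of them fell, and their mean over all 16 was 6.81 and 6.78 in the primary tumour derivative and 7.13 and 7.09 in parental cells. HBA1 and HBA2 are near-identical, so their probes may not separate them. The call of HBM, another globin gene, ended in 7 of 19 other settings, among them with only the 4 arrays compared.

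A smaller set of genes set the primary tumour derivative apart from all 3 other groups. Against M3-1 8.84% of the genes tested were called, against M3-2 9.25% and against the mean of both lines 11.8%. Called against parental cells, M3-1 and M3-2 each in the same direction, 95 genes were above (0.776% of those tested) and 58 below (0.474%). The 3 contrasts share the primary tumour derivative arrays, so the set is a description of these arrays, and it numbered 63 and 70 without their replicates 1 and 2. It numbered 283 without parental replicate 1, and 82 and 87 without M3-1 replicates 1 and 2.

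EFEMP1, the gene of the extracellular glycoprotein fibulin-3, had 10.44 and 10.41 in the primary tumour derivative, 7.34 and 7.51 in parental cells, 6.22 and 5.90 in M3-1 and 6.08 and 6.10 in M3-2. FOXA3 had 9.19 and 9.11 in the primary tumour derivative, 6.62 and 6.50 in parental cells, 6.39 and 6.34 in M3-1 and 6.74 and 6.73 in M3-2. IRX4, a homeobox factor best known from the heart ventricle, had 8.67 and 8.57 in the primary tumour derivative, 6.14 and 6.08 in parental cells, 6.21 and 6.18 in M3-1 and 6.12 and 6.21 in M3-2. IRX4 was thus above background in the primary tumour derivative alone of the 4 groups. The same held for RASL11B, a Ras-like GTPase, with 9.28 and 9.01 in the primary tumour derivative and values up to 6.47 on the 6 other arrays. CPLX3, a complexin of ribbon synapses, was likewise at 8.22 and 8.35 in the primary tumour derivative and at most 6.48 elsewhere.

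Genes below all other groups included metabolic and secreted products. PDK4, a kinase that turns off pyruvate dehydrogenase, had 7.96 and 8.59 in the primary tumour derivative, 9.23 and 10.28 in parental cells, 9.64 and 9.51 in M3-1 and 10.81 and 10.81 in M3-2. PGAM2, the muscle form of phosphoglycerate mutase, had 7.69 and 8.04 in the primary tumour derivative, 9.53 and 9.31 in parental cells, 9.20 and 9.24 in M3-1 and 9.10 and 9.29 in M3-2. GDF15, a stress-induced cytokine, had 8.57 and 8.54 in the primary tumour derivative, 9.81 and 9.53 in parental cells, 9.58 and 9.46 in M3-1 and 9.55 and 9.42 in M3-2. The 3 other groups were close to each other for PGAM2 and GDF15, with the derivative separate below them. The call of PDK4 against parental cells ended without primary tumour derivative replicate 1 (adjusted p = 0.0566). Of the 20 genes named from this set, IPO8 and SLC38A1 lie on chromosome 12.

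**Figure D5:**
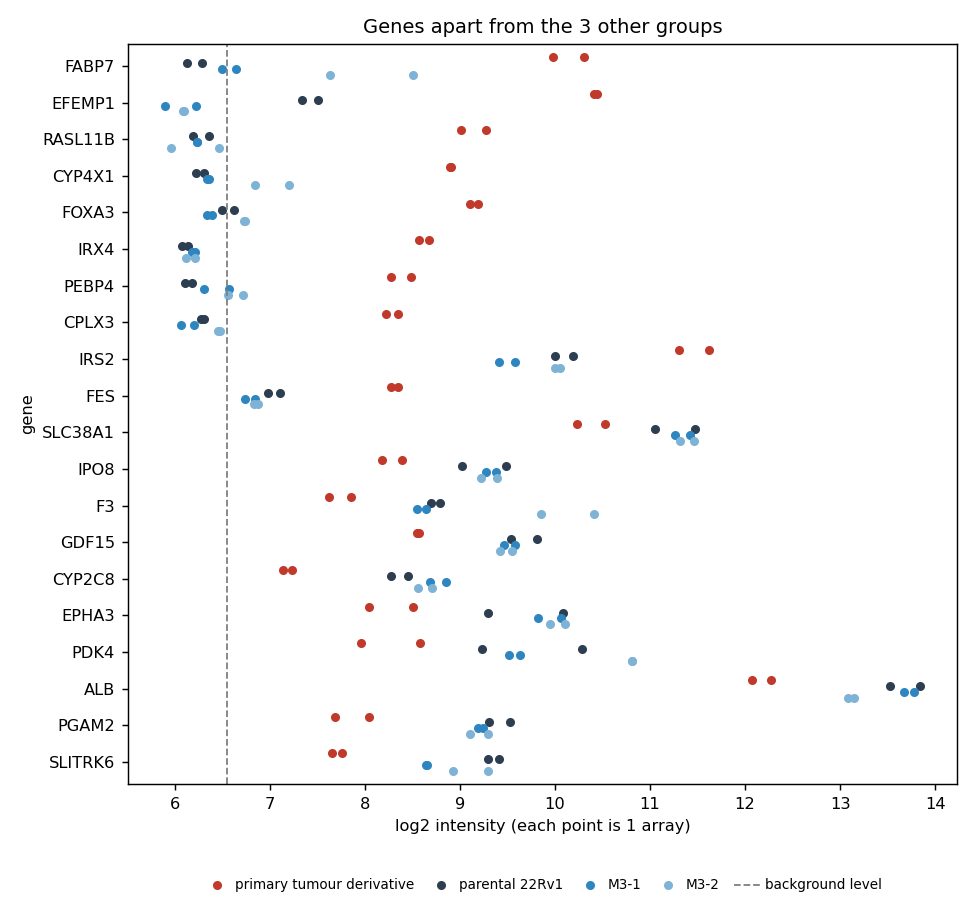
Log2 intensity (horizontal axis) on all 8 arrays of 20 genes called against each of the 3 other groups in the same direction (vertical axis), 10 above and 10 below, with the background level dashed. The primary tumour derivative is separate from all 6 other arrays for each gene, and EFEMP1 runs from 10.44 in the derivative to 5.90 in M3-1.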

How the data were processed

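Total RNA was labelled as biotin cRNA and hybridised to Illumina bead arrays, as the labels' protocols state. The authors deposited log2 intensities for 47320 probes. Their software, background correction and normalization: not given in the sources used here. All 8 arrays share one distribution (largest spread at any rank 0.012, values from 5.32 to 15.1). Another deposited table was not used, since its 16 columns of per-sample values match no sample's labels. GEO's platform annotation named the probes (30112 with 1 symbol, 8 with several, 17200 with none listed). The background level came from the mode of all values (6.122) and the SD below it (0.184). The brightest probe stood for a gene.

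All 8 arrays entered 1 linear model of 4 group means in limma 3.58.1 (R 4.3.3, lmFit and eBayes, 4 residual and 9.35 prior degrees of freedom, with an adjusted p threshold of 0.05 after Benjamini-Hochberg). The script was tested on simulated data. Members and 48 gene lists were chosen with earlier results of these data known. Named genes were the 20 largest called changes in each direction among genes whose arrays did not overlap, and up to 6 called members of each list. Also named were a fixed set of 26 genes, of which 22 were analysed here, and the 10 largest in each direction apart from all other groups. A few others were named after their values were seen, PTPRB, CPNE8, MYO1A, STAT6, BHLHE41, FAIM2, UGT2B4 and COL1A1. Of 64 named genes with several probes above background, all 64 had probes of one sign. Alternatives changed the samples fitted, the block, filter, probe rule, weights, prior, centring and background, left out each array, or left out or centred chromosome 12. Promoters were searched in Python 3.11.15 with Biopython 1.88.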

Additional observations from a re-analysis of the deposited data

Results flagged for a closer look

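Among 194 named changed genes, 5 differed from parental cells in opposite directions in the primary tumour derivative and in both metastatic lines. Each of these differences was called by limma. Some named genes, EFEMP1 among them, were chosen for standing apart from both metastatic lines. The share over all genes tested is not given here, so the 5 genes are a description. EFEMP1 was higher by 3.0 in the primary tumour derivative, against lower values in M3-1 (difference -1.36, adjusted p = 1.31e-05) and M3-2 (difference -1.33, adjusted p = 1.41e-05). The primary tumour derivative minus the mean of M3-1 and M3-2 was 4.35 for EFEMP1 (SE 0.12, adjusted p = 1.01e-10), and EFEMP1 was not above background on the 4 metastatic arrays. BASP1 was higher by 1.26 in the primary tumour derivative, against -2.91 in M3-1 and -0.80 in M3-2, and its difference from the mean of both lines was 3.11 (SE 0.12, adjusted p = 3.20e-09).

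The other 3 genes were lower in the primary tumour derivative and higher in both metastatic lines. KCNJ8, a potassium channel gene of chromosome 12, gave -0.66 in the primary tumour derivative, against 2.57 in M3-1 and 2.70 in M3-2, and its difference from the mean of both lines was -3.30 (SE 0.11, adjusted p = 9.19e-10). A2M, the protease inhibitor alpha-2-macroglobulin, also on chromosome 12, gave -0.74 in the primary tumour derivative, against 1.56 in M3-1 and 1.37 in M3-2, and its difference from the mean was -2.20 (SE 0.12, adjusted p = 5.24e-08). SERPINE2, a serine protease inhibitor, gave -0.58 in the primary tumour derivative, against 0.62 in M3-1 and 1.73 in M3-2, and its difference from the mean was -1.76 (SE 0.12, adjusted p = 4.09e-07). The call against parental cells ended for KCNJ8 without primary tumour derivative replicate 1, for A2M without its replicate 2 and for SERPINE2 without either.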

How the results depend on the processing

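The 844 changed genes became 419 with only the 4 arrays compared and ran from 354 to 1394 when 1 array was left out. The 153 genes apart from all other groups ran from 63 to 283 when 1 array was left out. Filters, probe rules, weights, prior, centring, normexp and both chromosome 12 settings kept the first count between 565 and 1118 (probes) and the second between 120 and 200. The replicate numbers mark no shared culture in the labels. For that reason alone the numbers were not taken as pairs. Deviations of same-numbered arrays correlated at 0.5233 between the primary tumour derivative and parental cells, the groups compared. In the other pairs of groups they correlated at -0.1814 to 0.1734. Whether same-numbered arrays of the groups compared share an effect was not tested. With the replicate number as a block, 1142 genes changed and 225 stood apart. Of 194 named changed genes, 112 kept their call in every setting and 82 lost it in some. IGF1 was reversed without the filter on dim genes, at 0.30 (adjusted p = 0.278), where another of its probes was the brightest. Of 960 list counts, 164 moved by over 1.5 times. The 2 arrays of each group limit all calls.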

Other observations

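Of the 38 changed genes that were not above background in parental cells and the 46 that were not above background in the primary tumour derivative, folds are lower bounds, so the order of the largest changes holds only for genes measured on both sides. Some genes with the widest gap between the parental arrays encode mitochondrial and general transcription proteins. MRPL47, a mitochondrial ribosomal protein, lay at 8.32 and 9.79 in parental replicates 1 and 2, UQCRB, a subunit of respiratory complex III, at 10.42 and 11.87, and GTF2H5, a subunit of the transcription factor TFIIH, at 10.20 and 11.67. None of these 3 was called. A gap between the parental arrays enters the spread that limma uses and so works against a call. Such a gap of 2-fold or more was seen in 1 of the 844 changed genes and in 0.457% of all genes tested. The count among changed genes is therefore no check of the calls.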
